A study of Mus musculus with 6 samples.

Results

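The genes of the Nodal and Activin pathway described here are the ligands Nodal and Gdf3, the co-receptor Tdgf1, the receptors Acvr1b, Acvr2a and Acvr2b, the signal transducer Smad2 and the inhibitors Lefty1, Lefty2 and Smad7. They were taken by symbol as 10 rows of gene tables that hold 24054 genes, and all 10 were among the 14539 genes with enough counts to be tested. They were measured by RNA-seq in 3 populations of mouse cells, with 2 independent replicates each and 6 samples in all. All cells came from one embryonic stem cell (ESC) line, DKI, which is heterozygous for Foxa2-Venus and homozygous for Sox17-Cherry, so that every sample carries both fluorescent fusions. The d0 cells were ESCs sorted as negative for Venus and Cherry on day 0. The d3F cells were collected on day 3 of differentiation towards endoderm as Venus-positive and Cherry-negative, and the d5FS cells on day 5 as positive for both. Differentiation was driven by Wnt3a and Activin A, which were replaced daily, so that a ligand of this pathway was supplied from outside to d3F and d5FS cells. The ESCs had been thawed on fibroblast feeders, which were removed before differentiation.

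Nodal and Activin are secreted proteins of the TGF-beta family that bring together type I and type II receptors at the cell surface, whereupon the receptor phosphorylates Smad2 and Smad3. These enter the nucleus with Smad4 and act with partners such as Foxh1 at their target genes. Nodal needs a co-receptor of the Cripto family, which Activin does not, and the pathway induces its own inhibitors, the Lefty proteins. In the mouse embryo graded Nodal signalling sets up the primitive streak, and high levels of it specify mesendoderm and then definitive endoderm.

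Libraries held between 16457729 and 22768686 expected counts, which are estimates of the number of read pairs per gene, and between 16770 and 19846 genes had at least 1 count. CPM (counts scaled to library size by TMM) are used below to compare samples for one gene, and TPM, which take gene length into account, to compare genes within one sample. Genes with an effective length under 200 bases took 56.6% to 77.5% of TPM, so that TPM of one gene is not compared between samples. Replicates differed far beyond counting noise, with a chi-square per degree of freedom of 145, 68.0 and 61.7 in d0, d3F and d5FS. In each population replicate 2 had the higher summed level of 67 histone genes, whose RNAs mostly lack a poly(A) tail, and a sample list of the study calls one library of each stage mRNA and the other total RNA without giving its replicate number. The 4 definitive endoderm markers were Foxa2, Sox17, Gata6 and Cxcr4. Their sum was 2.28 and 3.59 CPM in d0, 102 and 125 CPM in d3F and 141 and 266 CPM in d5FS. Foxa2 and Sox17 were also the basis of the sorting, so that their rise from d0 was set by the design. Foxa2 had 71.1 and 47.8 CPM in d3F and 36.6 and 59.3 CPM in d5FS. Gata6, which was not sorted on, had 0.395 and 0.563 CPM in d0, 16.7 and 24.3 CPM in d3F and 26.4 and 39.7 CPM in d5FS. Cxcr4, also not sorted on, had 1.10 and 2.20 CPM in d0, 9.90 and 37.9 CPM in d3F and 23.3 and 64.9 CPM in d5FS. Summed markers of other lineages reached at most 12.5 CPM for mesoderm, 78.3 CPM for visceral and extraembryonic endoderm and 12.8 CPM for neuroectoderm in any sample. The 78.3 CPM was in d0 replicate 2, where Rhox5 made up 75.2 CPM. Ttr, of the same list, had 0 and 0.154 CPM in d0 and 10.7 and 20.2 CPM in d5FS, and Sox7 and Amn had at most 5.04 CPM in any sample. The 4 mesendoderm markers, which are also target genes below, rose from 31.6 and 11.5 CPM in d0 to 341 and 297 CPM in d3F.

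Over the whole course, Gdf3 and Tdgf1 fell, Acvr1b and Smad2 rose, and the other members did not pass the test in any of the 3 comparisons in the fit without a term for the replicate number. A gene was called at an adjusted p under 0.05 (edgeR quasi-likelihood test, Benjamini-Hochberg adjustment over all genes tested) and a log2 fold change beyond 1 in either direction. From d0 to d3F, 0 members were called higher and 1 lower, beside 2.8% and 1.9% of all genes tested. From d3F to d5FS, 0 members were called higher and 2 lower, beside 1.08% and 0.461% of all genes. From d0 to d5FS, 2 members were called higher and 2 lower, beside 12.4% and 10.4% of all genes. By other rules the members counted as higher in the 3 comparisons were as follows, each beside the share of all genes. At an unadjusted p under 0.05 there were 2 (Acvr1b and Lefty1), 1 (Smad2) and 4 (Acvr1b, Acvr2a, Lefty1 and Smad2), beside 11.8%, 9.35% and 20.2%. DESeq2's Wald test called 1, 1 and 4, beside 5.92%, 4.37% and 14.2%, and its threshold test, which asks for more than a log2 change of 1, called 0 in each, beside 1.49%, 0.922% and 4.37%. With the replicate number as a block in edgeR, 1 (Lefty1), 1 (Smad2) and 4 (Acvr1b, Acvr2a, Lefty1 and Smad2) were called, beside 5.57%, 3.27% and 15.9%. The median log2 fold change of the 10 members was 0.38, -0.10 and 0.45 in these comparisons, beside -0.01, 0.01 and 0.02 for all genes. A test for any difference among the populations called 4 of the 10 members (Gdf3, Tdgf1, Acvr1b and Smad2), beside 16.9% of all genes. The comparisons share samples, so that a gene's 3 values are not independent of each other.

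**Figure D1:**
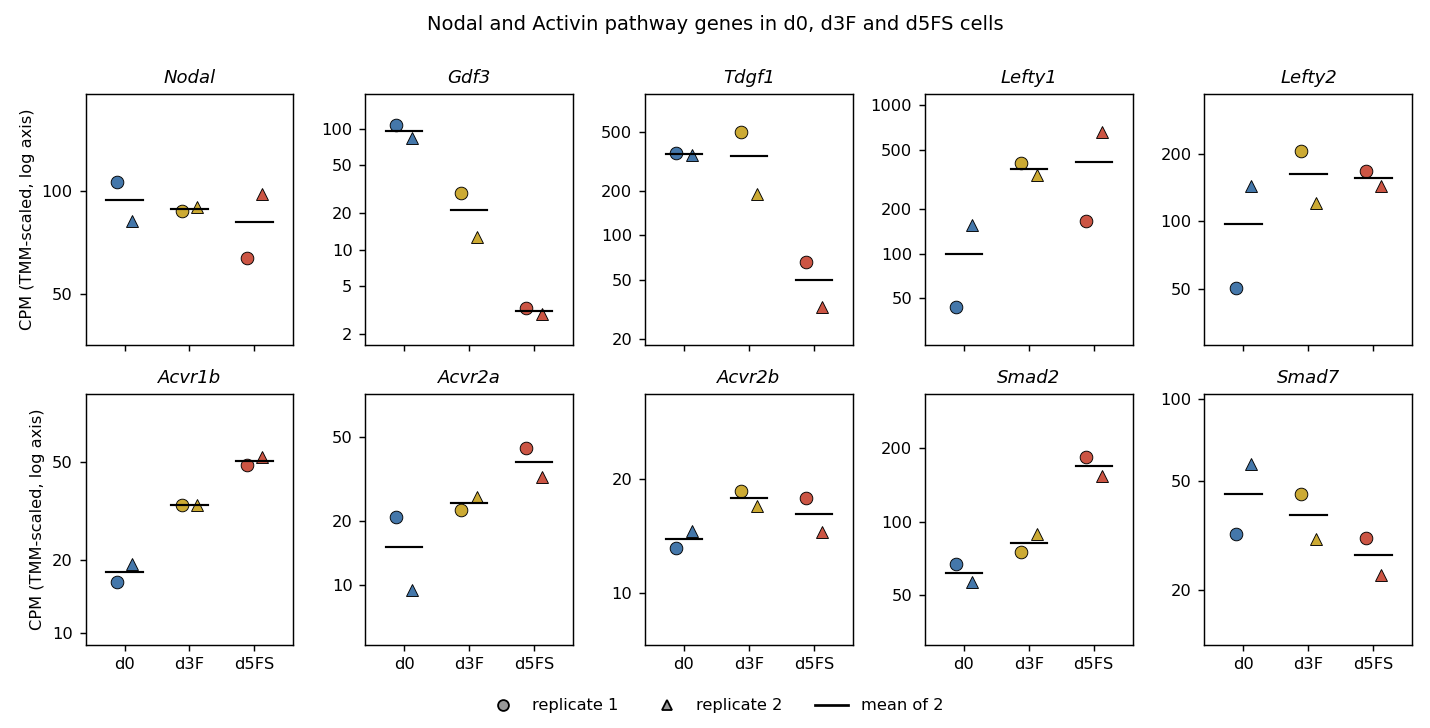
TMM-scaled CPM of the 10 genes (log axis, own range in each panel) in d0, d3F and d5FS cells, with replicate 1 as circles, replicate 2 as triangles and the mean as a line. Gdf3 is lower at each stage, Acvr1b is higher at each stage with close replicates, the Nodal samples of the 3 populations overlap, and the replicates of Lefty1 lie far apart in d0 and d5FS.

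**Figure D2:**
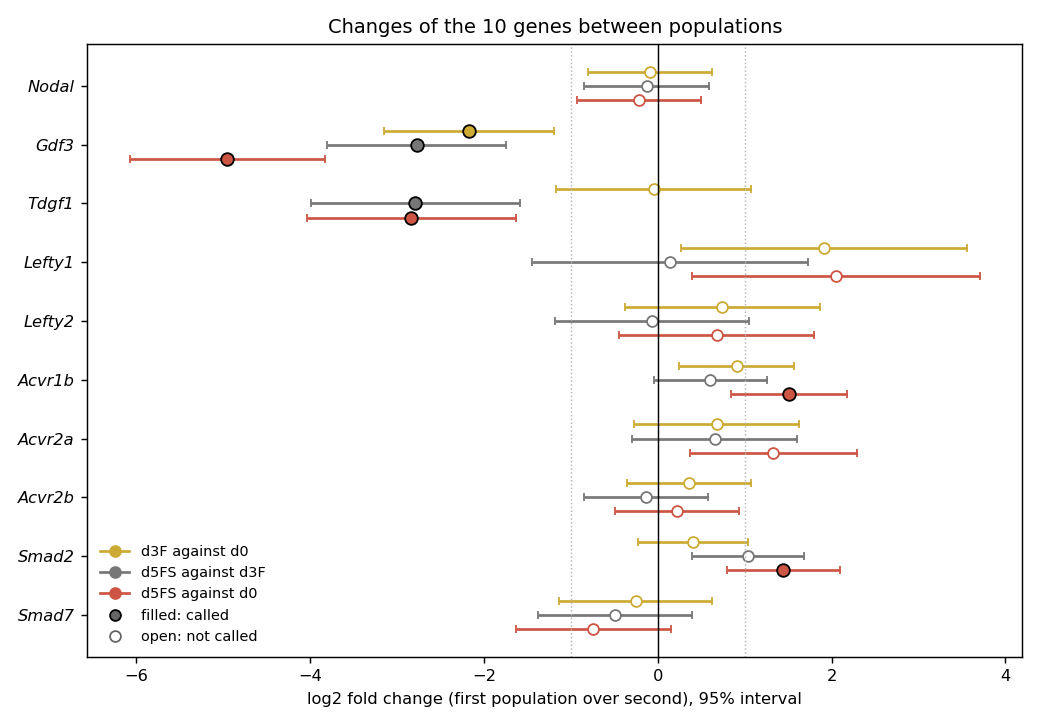
Log2 fold change of each gene (x axis, edgeR fit) in the 3 comparisons with its 95% interval as a bar. Filled points were called (adjusted p under 0.05 and beyond the dotted lines at -1 and 1), and the filled points are Gdf3 in all 3 comparisons, Tdgf1 in both with d5FS, and Acvr1b and Smad2 in d5FS against d0.

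The order of the members by level per length changed along the course. In both d0 samples Tdgf1 had the highest TPM of the 10 (136 and 62.2 TPM), and in all d3F and d5FS samples Lefty1 did, with 197 and 97.0 TPM in d3F and 54.6 and 139 TPM in d5FS. Gdf3 ranked 2 and 4 among the 10 in the d0 samples and 10 in both d5FS samples. Each receptor and Smad ranked 5 or lower in every sample, and Acvr2a was the lowest of the 10 in every d0 and d3F sample, at 0.53 to 2.78 TPM. Nodal stayed between rank 3 and rank 5 in all 6 samples.

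Nodal, the ligand that gives the pathway its name, lies at chr10:61417972-61425338 (mm10, GENCODE M21, plus strand). It had 107 and 81.8 CPM in d0, 87.4 and 90.1 CPM in d3F and 64.0 and 98.5 CPM in d5FS. The samples of the 3 populations overlapped, and the replicates within d5FS differed by 1.54 times, more than any of the population means did. Its mean was 94.3 ± 17.7 CPM (SD, n = 2) in d0, 88.8 ± 1.96 CPM in d3F and 81.2 ± 24.4 CPM in d5FS. Its log2 fold change between d0 and d3F was -0.09 (SE 0.31, adjusted p = 0.918) and that between d0 and d5FS -0.22 (SE 0.31, adjusted p = 0.651, edgeR). The 95% interval of the fold from d0 to d5FS ran from 0.524 to 1.41, so that a change of a size within this range is not excluded by these samples.

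Gdf3, a related ligand that signals through the same receptors and is known from pluripotent cells, lies at chr6:122605403-122610087 on the minus strand. It had 108 and 84.3 CPM in d0, 29.7 and 12.8 CPM in d3F and 3.29 and 2.92 CPM in d5FS. No sample of one population overlapped with another, although the d3F replicates were 2.33 times apart. Between d0 and d3F, Gdf3 fell by 2.18 on the log2 scale (SE 0.43, adjusted p = 0.0299, edgeR), a level 4.52-fold lower. It fell by 2.77 from d3F to d5FS (SE 0.45, adjusted p = 0.0307), and by 4.95 over the whole course (SE 0.49, adjusted p = 0.00171), to a level 30.9-fold lower. The call over the whole course held in every alternative run, with an adjusted p of at most 0.0146. The call from d0 to d3F was lost without d0 replicate 2 (adjusted p = 0.0549), d3F replicate 2 (0.181), d5FS replicate 1 (0.0552) or d5FS replicate 2 (0.0571). That from d3F to d5FS was lost without d3F replicate 1 (adjusted p = 0.173), d5FS replicate 1 (0.165) or d5FS replicate 2 (0.157). In each of these runs fewer genes of the whole table were called in the same comparison too. Without d3F replicate 1 no gene at all was called from d3F to d5FS.

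The summed level of 6 pluripotency markers (Pou5f1, Nanog, Sox2, Zfp42, Klf4 and Esrrb) moved in the same direction as Gdf3. It was 1264.5 and 2746 CPM in d0, 865 and 458 CPM in d3F and 121 and 101 CPM in d5FS. In d5FS all 6 markers lay below both d0 samples, in d3F 5 of 6 did, and none of them was at 0 in any population. How many of all genes lay below in the same way was not counted. All 6 markers were also higher in d3F replicate 1 than in replicate 2, as Gdf3 and Tdgf1 were. In d0 the order differed: the marker sum was higher in replicate 2, but Gdf3 (108 and 84.3 CPM) and Tdgf1 (359 and 349 CPM) in replicate 1. The part of the markers in the result was not tested. In bulk samples fewer cells with a transcript cannot be told apart from less of it per cell.

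Tdgf1 encodes Cripto, the co-receptor that lets Nodal act on its receptors, and lies at chr9:110939603-110946158 on the minus strand. Cfc1, the second co-receptor of this family, is not among the 10 members and is shown with it because both were measured for the same function and moved in opposite directions. The 250 bases before the start of each gene follow (RefSeq, GRCm38.p6), from chr9:110946159-110946408 on the minus strand for Tdgf1 and from chr1:34535398-34535647 on the plus strand for Cfc1. Capitals mark matches to the Foxh1 motif TGTNNATT, which was searched on both strands.
Tdgf1: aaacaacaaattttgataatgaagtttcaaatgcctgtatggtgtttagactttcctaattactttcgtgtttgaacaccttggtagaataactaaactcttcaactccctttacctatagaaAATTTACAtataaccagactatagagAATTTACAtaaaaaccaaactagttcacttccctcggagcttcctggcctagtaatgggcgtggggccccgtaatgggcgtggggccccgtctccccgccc
Cfc1: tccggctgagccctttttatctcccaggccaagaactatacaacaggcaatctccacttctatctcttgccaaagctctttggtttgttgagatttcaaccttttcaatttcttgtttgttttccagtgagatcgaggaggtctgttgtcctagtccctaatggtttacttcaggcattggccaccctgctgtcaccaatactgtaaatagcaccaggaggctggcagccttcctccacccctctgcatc
In the Tdgf1 promoter both matches read AATTTACA, the motif on the opposite strand, and lie 127 to 120 and 101 to 94 bases before the start. They are separate and do not overlap. Of the 10 members, 5 had a promoter in the table used (Nodal, Tdgf1, Acvr1b, Acvr2a and Acvr2b), and 1 of the 5 held the motif, as did 10.9% of 32851 mouse promoters of this length. The Smad motif GTCTAGAC was in 0 of the 5, beside 0.167% of all promoters.

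Tdgf1 had 359 and 349 CPM in d0, 495 and 191 CPM in d3F and 66.4 and 32.9 CPM in d5FS. The d0 replicates were nearly equal, the d3F replicates lay on either side of them and 2.59 times apart, and both d5FS samples were below all others. From d0 to d3F the log2 fold change was -0.05 (SE 0.49, adjusted p = 0.979, edgeR). It fell by 2.79 on the log2 scale from d3F to d5FS (SE 0.52, adjusted p = 0.0453), a level 6.90-fold lower, and by 2.83 from d0 to d5FS (SE 0.52, adjusted p = 0.00910). The d3F to d5FS call was lost without d3F replicate 1, d5FS replicate 1 or d5FS replicate 2. In each of these runs fewer of all genes were called in this step too. With a sample left out, the log2 fold change of this step ranged from -3.39 to -1.96. The call was also lost with at least 10 counts required in every sample (adjusted p = 0.0572, edgeR). The call from d0 to d5FS was lost without d5FS replicate 2 (adjusted p = 0.0546). The pluripotency markers given beside Gdf3 fell along with Tdgf1 from d3F to d5FS, and their part in this result was not tested either.

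Cfc1 had 0.438 and 0.819 CPM in d0, 9.62 and 36.8 CPM in d3F and 78.2 and 65.7 CPM in d5FS. It rose from d0 to d3F by a log2 fold change of 5.20 (SE 0.71, adjusted p = 0.0112, edgeR) and from d0 to d5FS by 6.84 (SE 0.75, adjusted p = 0.00195). The TPM ratio of Cfc1 to Tdgf1 within a sample, a comparison chosen after the values had been seen, was 0.00257 and 0.00482 for d0, 0.0401 and 0.396 for d3F, and 2.43 and 4.09 for d5FS. Tdgf1 was thus the more abundant co-receptor transcript in d0 and d3F, and Cfc1 in both d5FS samples.

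The convertases Furin and Pcsk6, proteases that cleave the Nodal precursor to its active form, also differed from each other. Pcsk6 had 20.6 and 32.1 CPM in d0, 7.18 and 3.18 CPM in d3F and 3.18 and 2.52 CPM in d5FS, and fell from d0 to d3F (log2 fold change -2.34, SE 0.48, adjusted p = 0.0337, edgeR) and from d0 to d5FS (-3.20, SE 0.50, adjusted p = 0.00515). The first of these calls was lost without d0 replicate 2, d3F replicate 2 or either d5FS sample. In each of these runs fewer of all genes were called from d0 to d3F too. Furin had 5.09 and 6.35 CPM in d0, 12.8 and 19.6 CPM in d3F and 13.3 and 26.3 CPM in d5FS, and rose from d0 to d5FS (1.79, SE 0.44, adjusted p = 0.0235). Per length Pcsk6 was the higher of the pair in both d0 samples and Furin in the other 4, with a TPM ratio of Furin to Pcsk6 of 0.249 and 0.198 for d0, 1.81 and 6.26 for d3F, and 4.14 and 10.6 for d5FS. This ratio too was chosen after the values had been seen.

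**Figure D3:**
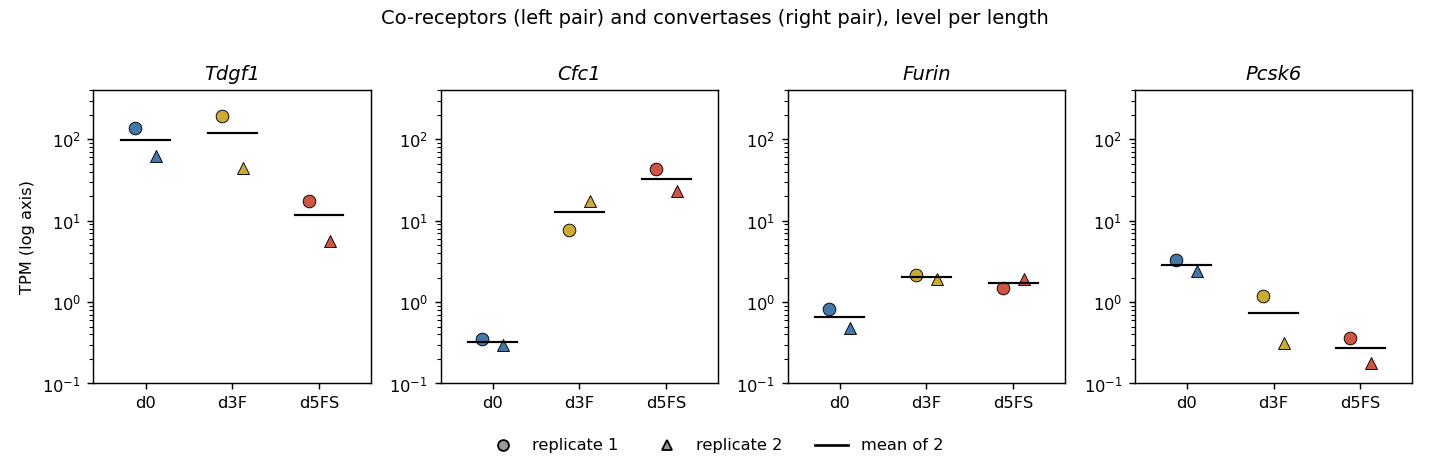
TPM (log axis, same range in all panels) of the co-receptors Tdgf1 and Cfc1 and of the convertases Furin and Pcsk6 in each sample. Lines are the mean of 2 replicates and are drawn as a guide only. TPM is to be compared between genes within a sample, not for one gene between samples. Within a sample, Tdgf1 is above Cfc1 in d0 and d3F and below it in d5FS, while Furin is below Pcsk6 in d0 and above it in d3F and d5FS.

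Acvr1b encodes ALK4, the type I receptor whose kinase phosphorylates Smad2 and Smad3, and lies at chr15:101174067-101213684 on the plus strand. It had 16.2 and 19.3 CPM in d0, 33.3 and 33.2 CPM in d3F and 48.7 and 52.6 CPM in d5FS. The populations did not overlap, and its replicates were within 1.19 times of each other in each population. It rose from d0 to d5FS by a log2 fold change of 1.51 (SE 0.29, adjusted p = 0.0102, edgeR), a level 2.85-fold higher. The call remained without any single sample and was lost in DESeq2's threshold test (adjusted p = 0.903). The single steps were not called, with a log2 fold change of 0.91 in the step to d3F (SE 0.29, adjusted p = 0.114) and 0.61 in that to d5FS (SE 0.28, adjusted p = 0.306). Its promoter, the 250 bases at chr15:101173822-101174071 (GRCm38.p6, plus strand), is shown because it differs in base composition from that of Tdgf1.
Acvr1b: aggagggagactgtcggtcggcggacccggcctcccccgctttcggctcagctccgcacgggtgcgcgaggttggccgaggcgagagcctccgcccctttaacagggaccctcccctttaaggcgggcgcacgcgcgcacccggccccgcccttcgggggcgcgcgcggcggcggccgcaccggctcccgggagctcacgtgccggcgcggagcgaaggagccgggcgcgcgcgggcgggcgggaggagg
This stretch had 78.8% G and C and 42 CpG dinucleotides, that of Tdgf1 42% and 7, and the median of all promoters was 52.4% and 6. The promoters of Acvr2a and Acvr2b were also rich in CpG, with 49 and 24, while Nodal had 3. Cfc1, which rose, had 2, and Pcsk6, which fell, had 40. Whether base composition is linked to the direction of change was not tested.

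Acvr2a and Acvr2b encode type II receptors, which bind the ligand and activate the type I receptor. Acvr2a lies at chr2:48814109-48903269 on the plus strand, and had 20.9 and 9.48 CPM in d0, 22.6 and 26.1 CPM in d3F and 44.3 and 32.3 CPM in d5FS. Both d5FS samples lay above the other 4, but the d0 replicates were 2.21 times apart. Between d0 and d5FS its log2 fold change was 1.33 (SE 0.42, adjusted p = 0.0516, edgeR), and with the replicate block it was called at 1.38 (adjusted p = 0.0199). Without d0 replicate 2 it was 0.88 (adjusted p = 0.179). The adjusted p was 0.0171 in DESeq2's Wald test, and 0.0154 in edgeR without d0 replicate 1, within a range of 0.00673 to 1 over all alternatives. Acvr2a overlaps Orc4 on the opposite strand by 446 exonic bases, its expected counts were not whole numbers in any of the 6 samples, and the library kit does not mark strand, so that reads of the overlap cannot be assigned to one gene. Acvr2b, at chr9:119402118-119434995 on the plus strand, had 13.2 and 14.6 CPM in d0, 18.6 and 17.0 CPM in d3F and 17.8 and 14.5 CPM in d5FS. No comparison of it was called, and the 95% interval of its fold from d0 to d5FS ran from 0.709 to 1.91. Per length Acvr2b was the higher of the pair in all 6 samples, with TPM ratios of Acvr2a to Acvr2b of 0.432 and 0.177 for d0, 0.333 and 0.422 for d3F, and 0.681 and 0.614 for d5FS.

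Lefty1 and Lefty2 encode secreted inhibitors that bind Nodal and its co-receptors and do not block Activin. They are neighbours on chromosome 1, Lefty2 at chr1:180893108-180899103 and Lefty1 at chr1:180935022-180938400, both on the plus strand. Their coding sequences are 1107 bases each and identical at 91.9% of positions, with 90 differing bases. The longest identical run is 140 bases. Of all windows of 100 bases, the read length, 73 of 1008 (7.24%) were identical in both coding sequences. The expected counts of both genes were fractions in all 6 samples and their sum was a whole number, so that the deposited values hold reads divided between them.

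Lefty1 had 43.8 and 156 CPM in d0, 411 and 338 CPM in d3F and 167 and 659.9 CPM in d5FS. Both d3F and both d5FS samples lay above both d0 samples, with the lower d5FS sample just above the higher d0 sample. The replicates were 3.55 times apart in d0 and 3.95 times in d5FS, the widest spread of any member, and 1.22 times in d3F. Between d0 and d3F the log2 fold change was 1.91 (SE 0.72, adjusted p = 0.176, edgeR) and between d0 and d5FS 2.05 (SE 0.72, adjusted p = 0.0725), and neither was called. With the replicate block both were called, at 2.32 (adjusted p = 0.0472) and 2.03 (adjusted p = 0.0248, edgeR). In DESeq2's Wald test the adjusted p was 0.0421 and 0.0104. The edgeR value from d0 to d3F was 1.27 without d0 replicate 1 (adjusted p = 0.346) and 3.11 without d0 replicate 2 (adjusted p = 0.0942). From d0 to d5FS it was 0.76 without d5FS replicate 2 (adjusted p = 0.450), and 3.24 without d0 replicate 2 (adjusted p = 0.0327). Over all alternatives the adjusted p of the latter comparison ranged from 1.16e-06 to 0.776. From d3F to d5FS it was 0.14 (SE 0.70, adjusted p = 0.938), and -1.17 without d5FS replicate 2 (adjusted p = 0.454). Replicate 2, the higher one in d0 and d5FS, also had the higher histone level, with 31804 and 49068 CPM in d0, 33235 and 37755 CPM in d3F and 12916 and 25488 CPM in d5FS. Whether this difference between the libraries has a part in the spread of Lefty1 was not tested.

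Lefty2 had 50.4 and 144 CPM in d0, 205 and 121 CPM in d3F and 168 and 144 CPM in d5FS. The populations overlapped, and no comparison was called (log2 fold change 0.74 from d0 to d3F, SE 0.49, adjusted p = 0.459, and 0.68 from d0 to d5FS, SE 0.49, adjusted p = 0.340, edgeR). The value from d0 to d5FS was 0.098 without d0 replicate 1 (adjusted p = 0.888) and 1.64 without d0 replicate 2 (adjusted p = 0.0491). Summed to 1 row, which avoids the division of reads and was chosen after the data had been seen, the 2 genes had 94.2 and 300.1 CPM in d0, 617 and 459 CPM in d3F and 335 and 804 CPM in d5FS. The sum was lowest in d0, but it was not called either, with a log2 fold change of 1.45 from d0 to d3F (SE 0.59, adjusted p = 0.212) and 1.53 from d0 to d5FS (SE 0.59, adjusted p = 0.0951).

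Within a sample Lefty1 had the higher TPM of the 2 in all 6 samples, with a ratio of Lefty1 to Lefty2 of 1.40 and 1.73 in the d0 samples, 3.23 and 4.51 in the d3F samples, and 1.60 and 7.36 in the d5FS samples. The ratio of both Lefty transcripts together to Nodal was 0.949 and 4.04 for d0, 8.32 and 6.18 for d3F, and 5.72 and 10.3 for d5FS. Both ratios are per length and do not depend on the scaling of the libraries. No test was run on the ratios.

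Smad2, the transducer that the activated receptor phosphorylates, lies on chromosome 18 from 76241580 to 76310963. It had 67.1 and 56.8 CPM in d0, 75.4 and 88.8 CPM in d3F and 184 and 153 CPM in d5FS. The populations did not overlap, and its replicates were within 1.21 times of each other in each population. Smad2 rose from d0 to d5FS by a log2 fold change of 1.44 (SE 0.28, adjusted p = 0.0109, edgeR), a level 2.72-fold higher. This call was lost without d0 replicate 2 or d5FS replicate 1, and in DESeq2's threshold test. With a sample left out, the log2 fold change from d0 to d5FS ranged from 1.30 to 1.58. From d3F to d5FS the log2 fold change was 1.04 (SE 0.28, adjusted p = 0.110), or 1.03 and called with the replicate block (adjusted p = 0.0392), and from d0 to d3F 0.41 (SE 0.28, adjusted p = 0.477). In DESeq2's Wald test the adjusted p from d3F to d5FS was 0.0234, the lowest of the alternatives, and in its threshold test it was 1.

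Fibroblast markers were examined beside Acvr1b and Smad2 because of the feeders used before differentiation. Col1a1, Col1a2, Col3a1, Thy1 and Postn together had 8.90 and 14.5 CPM in d0, 31.5 and 76.6 CPM in d3F and 231 and 194 CPM in d5FS. Col1a2 alone had 110 and 156 CPM in d5FS, where Col1a1 had 30.4 and 14.6 CPM. Col3a1 had 59.0 and 17.1 CPM and Postn 31.2 and 6.13 CPM in the same samples. In d5FS 4 of the 5 lay above both d0 samples, Thy1 lay below them, and none was at 0 in any population. How many of all genes lay above in the same way was not counted. Venus signal was required in the sorting of both later populations. Whether any feeders remained after this sorting was not tested. The summed markers moved in the same direction as both genes, and their part in those results was not tested.

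Smad7, an intracellular inhibitor that competes for the activated receptor and marks it for degradation, lies on chromosome 18 from 75367529 to 75395935. It had 31.9 and 57.8 CPM in d0, 44.6 and 30.7 CPM in d3F and 31.0 and 22.7 CPM in d5FS. Both d5FS samples lay below both d0 samples, by little in the case of d0 replicate 1. Its log2 fold change between d0 and d5FS was -0.74 (SE 0.39, adjusted p = 0.195, edgeR), and its 95% interval ran from a fold of 0.324 to 1.11.

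Another 35 genes of the pathway were followed by role, of which 33 had enough counts to be tested (Inhba and Acvr1c did not). From d0 to d3F, 8 were called higher (Tgfbr3, Cfc1, Cer1, Gsc, Eomes, Mixl1, Lhx1 and T) and 1 lower (Pcsk6). The shares of all genes were 2.8% and 1.9%. From d3F to d5FS, 1 was called higher (Cer1) and 2 lower (Mixl1 and T), beside 1.08% and 0.461%. From d0 to d5FS, 10 were called higher and 1 lower (Pcsk6), beside 12.4% and 10.4%. The list was chosen with earlier results of these data known. With the replicate block the calls in either direction numbered 12, 5 and 15, beside 1320, 918 and 4296 of all 14539 genes. It added Furin (higher), Pmepa1 (higher) and Inhbb (lower) from d0 to d3F, Inhbb (higher) and Fst (lower) from d3F to d5FS, and Bambi, Drap1, Pmepa1 and Tgfbr2 (all higher) from d0 to d5FS. The 3 calls from d3F to d5FS were all lost without d3F replicate 1 or either d5FS sample. They were fewer without d3F replicate 2 and more without either d0 sample. The number of calls over all genes moved in the same direction in each of these runs. The median log2 fold change of the 33 was 0.64, 0.24 and 0.85 in the 3 comparisons, beside -0.01, 0.01 and 0.02 for all genes.

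The 5 target genes followed were all called higher in d3F than in d0, beside 2.8% of all genes. Lhx1, a homeobox factor of the anterior streak, had 0.263 and 0.307 CPM in d0, 31.0 and 43.5 CPM in d3F and 66.1 and 63.5 CPM in d5FS (log2 fold change from d0 to d3F 7.01, SE 0.43, adjusted p = 0.00178, edgeR). Eomes, a T-box factor needed for definitive endoderm, had 10.3 and 5.02 CPM in d0, 99.2 and 151 CPM in d3F and 118 CPM in both d5FS samples. T, the T-box factor of the streak and early mesoderm, had 19.8 and 5.12 CPM in d0, 169 and 69.0 CPM in d3F and 8.51 and 3.26 CPM in d5FS, and it fell from d3F to d5FS (-4.34, SE 0.79, adjusted p = 0.0437). In the second step Mixl1 and T fell and the other 3 targets were not called. In d5FS 4 of the 5, all but T, were called higher than in d0, beside 12.4% of all genes.

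Among the 5 extracellular and membrane inhibitors only Cer1 was called in the 3 pairwise comparisons with edgeR without the block. Of all genes, 2.8%, 1.08% and 12.4% were called higher in these comparisons. The test for any difference among the populations also called Fst (adjusted p = 0.0362), and DESeq2's Wald test also called Fst and Bambi. Cer1, a secreted antagonist of Nodal, BMP and Wnt proteins, had 1.40 and 0.615 CPM in d0, 51.7 and 63.6 CPM in d3F and 295 and 481 CPM in d5FS, and rose in both steps (log2 fold changes 5.81, SE 0.50, adjusted p = 0.00269, and 2.75, SE 0.42, adjusted p = 0.0242, edgeR). The call in the second step was lost without either d3F sample or either d5FS sample. In each of these runs fewer of all genes were called in this step too. Fst encodes follistatin, which binds Activin and had 22.7 and 3.84 CPM in d0, 53.9 and 29.4 CPM in d3F and 4.03 and 3.84 CPM in d5FS. Its replicates in d0 lay far apart, and its log2 fold change from d3F to d5FS was -3.40 (SE 0.76, adjusted p = 0.0714), or -3.29 and called with the block (adjusted p = 0.0270).

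Of the Smads and partners, Smad3, the second receptor-regulated Smad of the pathway, was called higher in d5FS than in d0. It had 28.7 and 21.4 CPM in d0, 46.8 and 54.9 CPM in d3F and 50.3 and 74.1 CPM in d5FS (log2 fold change 1.31, SE 0.33, adjusted p = 0.0248, edgeR). Smad4, Foxh1, Zfyve9 and Trim33 were not called in any comparison with edgeR. The 9 intracellular inhibitors were Ski, Skil, Tgif1, Tgif2, Drap1, Smurf1, Smurf2, Pmepa1 and Ppm1a. They gave 0 calls in each of the 3 comparisons with edgeR without the block. Of all genes, 2.8%, 1.08% and 12.4% were called higher in these comparisons and 1.9%, 0.461% and 10.4% lower. With the block Pmepa1 was called from d0 to d3F (log2 fold change 2.22, adjusted p = 0.0223) and from d0 to d5FS (2.07, adjusted p = 0.00888), and Drap1 from d0 to d5FS (adjusted p = 0.00462). DESeq2's Wald test called Pmepa1 from d0 to d3F, 0 of them in the step to d5FS, and Drap1 and Pmepa1 over the whole course. The shares of all genes that it called higher were 5.92%, 4.37% and 14.2%. DESeq2's threshold test called 0 of them in each comparison, beside 1.49%, 0.922% and 4.37% called higher. At an unadjusted p under 0.05, Pmepa1 was higher in d3F than in d0, as were 11.8% of all genes, Pmepa1, Drap1 and Smurf1 were higher in d5FS than in d0, as were 20.2%, and Tgif2 was lower in d5FS than in d3F, as were 8.78%. Tgfbr3, a co-receptor that binds TGF-beta and inhibins, had 5.35 and 1.95 CPM in d0, 43.4 and 39.8 CPM in d3F and 95.8 and 72.8 CPM in d5FS (log2 fold change from d0 to d5FS 4.52, SE 0.51, adjusted p = 0.00205).

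**Figure D4:**
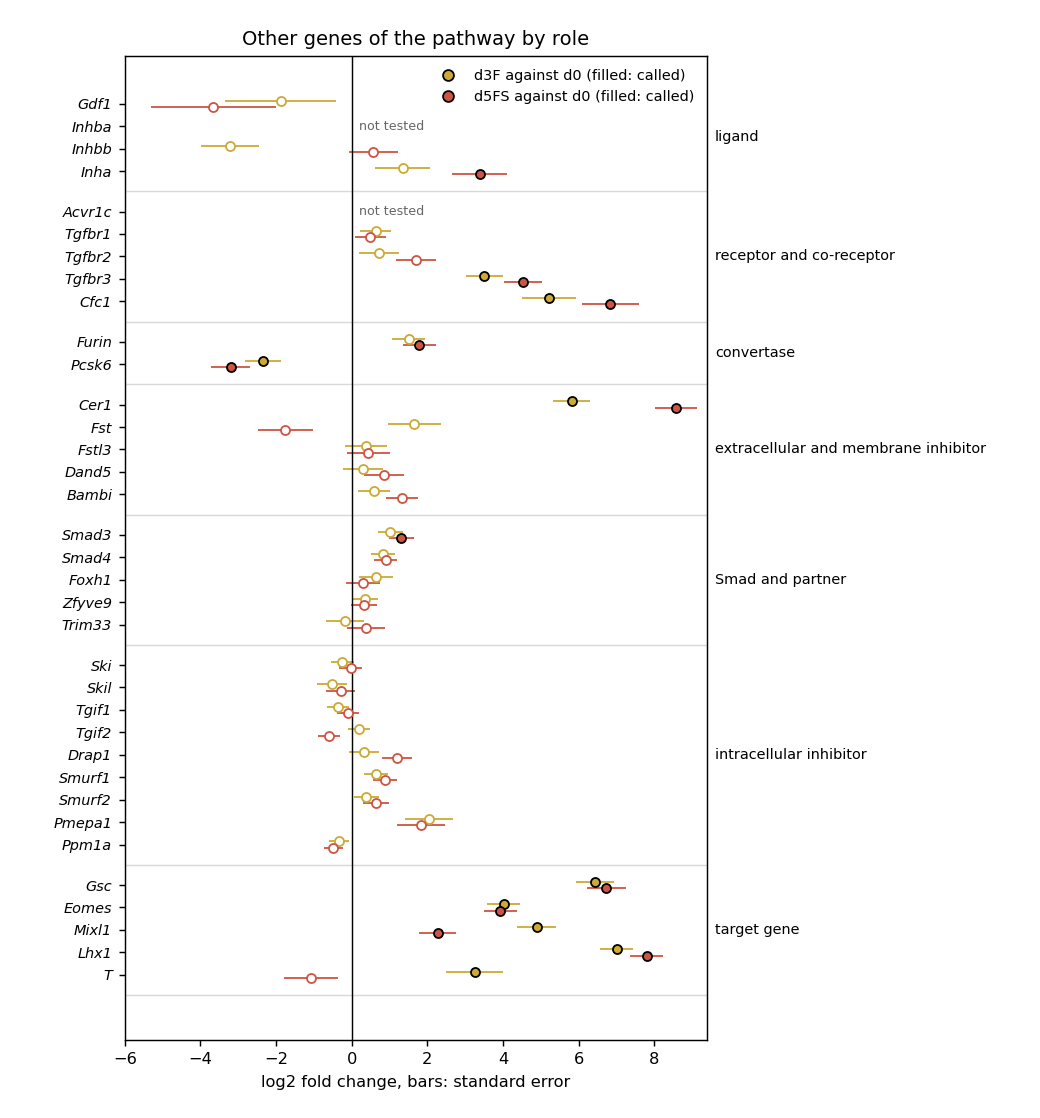
Log2 fold change (x axis, bars are the SE) of the other 35 pathway genes against d0, grouped by role, with d3F in yellow and d5FS in red and filled points where the gene was called. The 5 target genes are all filled for d3F, the 9 intracellular inhibitors are all open in this fit, which has no replicate block, and Inhba and Acvr1c were not tested.

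The genes whose log2 CPM followed each member most closely over the 6 samples were noted as a description. For Gdf3 these were Hsph1, Plcg2 and Wdr36 (Pearson's r of 0.999, 0.998 and 0.997), for Tdgf1 Fam115c, Slc2a6 and Rspo1, for Acvr1b Zfp810, Sdsl and Tmem218, and for Smad2 Apob, BC022687 and R74862. The 6 samples form 3 populations, so that any gene with the same order of populations gives a high r: 1109 of 14538 genes exceeded 0.9 with Gdf3 and 1054 with Smad2. Nodal had 46 such genes, led by Ube2v1, Casp2 and Med22 (r of 0.983, 0.975 and 0.973), and Lefty2 had 27.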

How the data were processed

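RNA-seq of d0, d3F and d5FS cells was used, with 2 replicates each, grouped by the titles of the samples. According to the Methods and the labels, total RNA was depleted of ribosomal RNA and paired ends were sequenced. Per the labels, STAR and RSEM were used on mm10 (versions and annotation not given in the sources used here). The authors deposited for each sample expected counts, which are RSEM estimates and are not normalized, and TPM, which are divided by effective length and scaled to the same sum. Deposited FPKM values were not used.

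Expected counts were rounded. In edgeR 4.0.16 (R 4.3.3), filterByExpr left 14539 genes, TMM factors ranged from 0.877 to 1.08, and all 6 samples entered 1 quasi-likelihood fit with 1 mean for each population (3 residual degrees of freedom, prior count 0.125). Calls needed an adjusted p (Benjamini-Hochberg) under 0.05 and a log2 fold change beyond 1 in size. SEs were derived from the log2 fold change and its F statistic. Genes named are the 10 members, 35 other pathway genes by role, marker lists, and the 3 genes with the highest r to each member (log2 CPM, prior count 2). Members and lists were chosen with earlier results of these data known. Positions are from GENCODE M21, promoters from RefSeq, and 5 members without a promoter entry are named only. Counts were taken as whole within 0.015. Titles give the same replicate numbers in each population without saying what a number marks. Differences between replicate 1 and replicate 2 correlated across genes (r = 0.314, 0.324 and 0.278 between populations). A shared experiment and a shared library type cannot be told apart as the source of this. The numbers were treated as pairs in the block. Blocked values are given where they change a call of a member. For the other pathway genes the changed calls are named, some of them with values. Alternatives were DESeq2 1.42.0 (size factors, Wald tests, likelihood ratio test), no filter, a minimum of 10 counts per sample, a block for the replicate number, only the populations compared, and each sample left out. Some items of the pathway are not reported here. Figures were drawn with matplotlib 3.10.9.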

Additional observations from a re-analysis of the deposited data

How the results depend on the processing

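For the 10 members in 3 comparisons, 13 alternatives each gave 390 values, of which 347 kept both direction and side of the threshold, 18 lost a call, 14 gained one and 11 changed sign. From d0 to d3F, the number of members called higher went from 0 to 1 in DESeq2's Wald test, without the filter on low counts and with the replicate block, and stayed at 0 with any sample left out. The number called lower in this comparison went from 1 to 0 in DESeq2's threshold test (beyond a log2 change of 1) and with only the 2 populations fitted, and ranged from 0 to 1 with a sample left out. From d3F to d5FS, the number called higher went from 0 to 1 in DESeq2's Wald test and with the block. The number called lower in that step went from 2 to 1 with at least 10 counts in every sample, and ranged from 0 to 2 with a sample left out. From d0 to d5FS, the number called higher went from 2 to 4 in DESeq2's Wald test, without the filter and with the block, to 0 in the threshold test, and ranged from 1 to 3 with a sample left out. The number called lower over the whole course ranged from 1 to 2. Members called for any difference numbered 4, ranged from 1 to 4 with a sample left out, and were 6 without the filter and with the block. With a d3F or d5FS sample left out, fewer of all genes were called from d3F to d5FS as well. The cause of these changes was not tested.

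Sign changes occurred only among values that were not called. With a sample left out, the log2 fold change from d0 to d3F ranged from -0.25 to 0.12 for Nodal, from -0.88 to 0.50 for Tdgf1 and from -0.62 to 0.25 for Smad7. That from d3F to d5FS ranged from -0.47 to 0.14 for Nodal, from -1.17 to 0.80 for Lefty1 and from -0.40 to 0.36 for Lefty2, and that of Nodal from d0 to d5FS from -0.55 to 0.058. Lefty1 from d3F to d5FS was -0.30 with the replicate block, and the sum of Lefty1 and Lefty2 gave 0.083 where Lefty2 alone gave -0.064. Rescaled by the TMM factors, the mean TPM of Nodal in d5FS was 18.0 in place of 15.4.

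The replicate block changed no call of a member other than those of Lefty1 (2.32 from d0 to d3F and 2.03 from d0 to d5FS), Acvr2a (1.38) and Smad2 (1.03), and no call was lost. Over all genes the calls went from 683, 224 and 3313 in the 3 comparisons to 1320, 918 and 4296 with the block. They were 1516, 1104 and 4019 in DESeq2's Wald test, 384, 183 and 1035 in its threshold test, 1933, 1423 and 4495 without the filter, 357, 144 and 2478 with at least 10 counts in every sample, and 430, 529 and 2644 with only the populations compared. A lone sample left in a population was taken to vary like the others. With 2 samples a population, the 95% interval of Lefty1 from d0 to d5FS ran from 1.32- to 13.1-fold.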
